A study of Mus musculus with 2 samples.

Results

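The 52 genes described here are the G2/M scoring genes of the Seurat package, a list of transcripts that peak in G2 phase and mitosis and that is used to place single cells in the cell cycle. They were taken by name from the count table, which held all 52 of them among 15046 genes. They were measured in 304 proliferating neural stem/progenitor cells (NSPCs) from the subventricular zone (SVZ) of adult mice. The NSPCs came from male C57/Bl6 mice aged 6 to 8 weeks, were passaged at least 5 times as neurospheres and stably carried PLIN2-GFP, a fluorescent fusion of a lipid droplet coat protein. Cells with the lowest 25% and the highest 25% of GFP signal were sorted into 384-well plates and sequenced by SORT-seq, a plate-based single-cell method that counts unique molecular identifiers (UMIs). All cells of both categories, low and high PLIN2-GFP, thus carried the same transgene, and both plates held the same line. The 2 plates are therefore the only replicates, and p-values refer to sums of cells of this line. The fits share their estimate of spread over genes, so a p-value need not follow a gene's own difference between the plates.

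Plate 1 held 179 cells and plate 2 held 125 cells. The cells had between 1170 and 34630 UMIs, with a median of 10774. The low and high sums held 801933 and 1029023 UMIs on plate 1 and 857262 and 778022 on plate 2. The low category comprised 95 cells (plate 1) and 72 cells (plate 2), the high category 84 and 53. Median UMIs per cell were 7856 and 11955 in the low category, against 11709 and 14729 in the high category. Depth per cell was thus greater in the high category of each plate. Low and high cells lay in different well rows, since 0 rows held both, so well row and GFP category cannot be told apart. Of the cell barcodes, 59 occurred on both plates. The NSPC markers Fabp7, Vim, Nes, Hes1 and Sox2 summed to between 6294 and 6404 CPM (counts scaled to 1000000 per sum) in the 4 sums, while 3 neuronal markers summed to between 49.6 and 61.8 CPM. The endothelial genes Pecam1 and Flt1 together lay between 2.92 and 13.1 CPM. Microglial markers were not analysed here.

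Entry into mitosis is driven by the kinase CDK1 bound to B-type cyclins. Many genes for this machinery are held back in G1 and released late in the cycle through promoter elements bound by the DREAM and MuvB complexes, of which the cell cycle homology region with the letters TTTGAA is the best known. After chromosome alignment the anaphase-promoting complex marks cyclin B and other mitotic proteins for destruction. In the SVZ, activated NSPCs and their transit amplifying progeny express these genes and quiescent NSPCs do not.

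Because the letters TTTGAA are a shared feature that the choice of the genes did not use, they were searched on both strands in RefSeq promoter windows of GRCm38.p6, from 250 bases before to 50 bases after each transcription start. Of the 52 genes, 46 had at least 1 window, and they had 51 windows in all. TTTGAA lay within 50 bases of the start on either side in 27 of these 51 windows (52.9%), against 4.94% of all 32851 windows. Over the whole 300 bases the shares were 66.7% and 17.9%. The variant TTCGAA lay near the start in 7.84% of the G2/M gene windows and in 0.374% of all windows, and CCAAT, the NF-Y element, lay near the start in 58.8% and 13.6%. TTTGAA and CCAAT do not overlap in the sequences shown here. Among 61 windows of other mitotic genes, TTTGAA lay near the start in 45.9% and anywhere in 54.1%, and CCAAT near the start in 44.3%. A match describes letters, not a bound site. The following 80 bases directly upstream of the start are shown for the 2 genes with the smallest p between high and low PLIN2-GFP NSPCs (Ube2c and Top2a), for Cdc20, Cdk1 and Hmgb2, and for Tubb4b, which has no TTTGAA in this stretch. Capitals mark TTTGAA or its reverse complement TTCAAA and CCAAT or its reverse complement ATTGG.
Ube2c (chr2:164769849-164769928, plus strand): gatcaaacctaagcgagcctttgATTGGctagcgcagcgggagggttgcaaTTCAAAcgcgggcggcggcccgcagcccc
Top2a (chr11:99024190-99024269, minus strand): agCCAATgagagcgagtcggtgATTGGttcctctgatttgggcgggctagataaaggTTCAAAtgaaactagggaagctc
Cdc20 (chr4:118437344-118437423, minus strand): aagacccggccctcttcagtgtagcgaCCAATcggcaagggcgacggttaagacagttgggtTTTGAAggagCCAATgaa
Cdk1 (chr10:69352913-69352992, minus strand): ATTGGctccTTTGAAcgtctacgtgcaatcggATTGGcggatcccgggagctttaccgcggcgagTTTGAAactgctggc
Hmgb2 (chr8:57511763-57511842, plus strand): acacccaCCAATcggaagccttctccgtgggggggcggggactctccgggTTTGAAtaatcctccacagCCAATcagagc
Tubb4b (chr2:25224703-25224782, minus strand): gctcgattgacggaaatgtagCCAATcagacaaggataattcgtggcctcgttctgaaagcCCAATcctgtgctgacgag

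In 4 further genes the match lay just downstream of the start used for the window, and 30 bases around it are shown. For Cenpa, Kif20b, Kif23 and, above, Top2a, that start differed from the start in the gene annotation. Positions before or after the start thus hold for the window's start. Ccnb2 and Cenpa are included because they had the lowest ratios of S to G1 level among the 52 genes. Kif20b and Kif23 are included because they were called between the GFP categories.
Ccnb2 (chr9:70421533-70421562, minus strand): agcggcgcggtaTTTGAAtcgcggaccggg
Cenpa (chr5:30666890-30666919, plus strand): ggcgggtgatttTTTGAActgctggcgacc
Kif20b (chr19:34922353-34922382, plus strand): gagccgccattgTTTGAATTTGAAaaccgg
Kif23 (chr9:61946780-61946809, minus strand): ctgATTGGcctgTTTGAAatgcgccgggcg

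**Figure D1:**
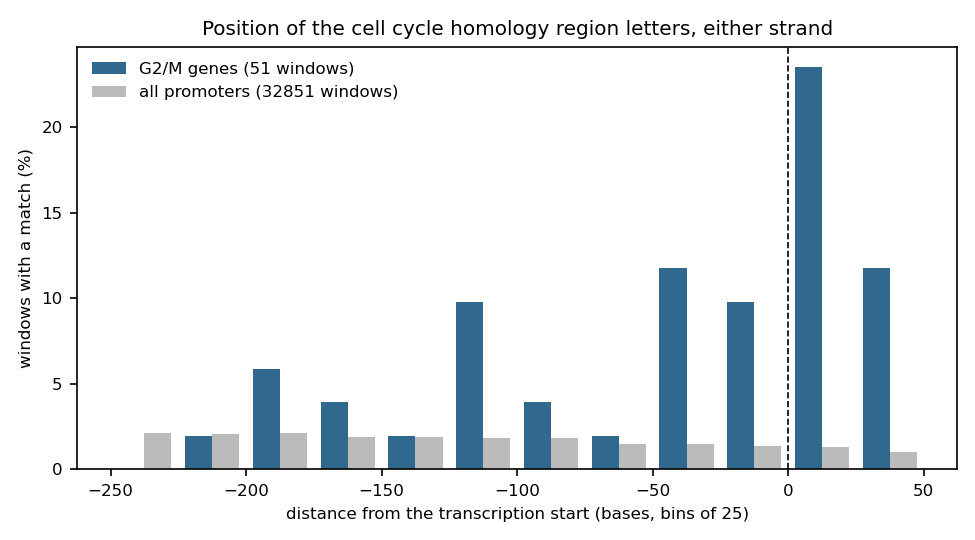
Share of promoter windows (%) with TTTGAA on either strand, by distance from the transcription start in bins of 25 bases, for the G2/M genes (51 windows, blue) and all promoters (32851 windows, grey). The blue bars are highest in the bins around the start, where the grey bars stay low.

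Cell cycle phase had been assigned by the authors from an S score and a G2M score, and the G2M score is built from these genes, so differences between phases are a description of how the genes differ from each other and carry no test. Scoring the cells again with the 52 genes gave the deposited phase in 298 of 304 cells (98.0%). The deposited phase was G1 for 132 cells, S for 77 and G2/M for 95. The 52 genes made up 0.705% of all counts. Their share was 0.239% and 0.281% of UMIs in G1 cells of plates 1 and 2, 0.493% and 0.574% in S cells, and 1.34% and 1.41% in G2/M cells. Over all cells a gene had between 34.6 counts (Cdc25c) and 2338 counts (Hmgb2), with a median of 285, and 48 genes had at least 100 counts.

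The genes did not share one profile. The median log2 ratio of CPM between G2/M and G1 cells was 3.22 (3.45 and 3.00 on plates 1 and 2), and 50 of the 52 genes were higher in G2/M than in G1 cells on both plates with a ratio defined on each. In S cells 42 genes were above and 3 below their G1 level on both plates, with a median log2 ratio of 1.73. S cells were below G2/M cells for 51 genes on both plates. By role, the median log2 ratio between G2/M and G1 cells was highest for the 3 cytokinesis genes (3.88), followed by the 3 genes of the chromosomal passenger complex (3.74), and lowest for the 11 genes of chromosome structure and the nuclear envelope (2.31), whose members ranged from 0.39 to 4.46.

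**Figure D2:**
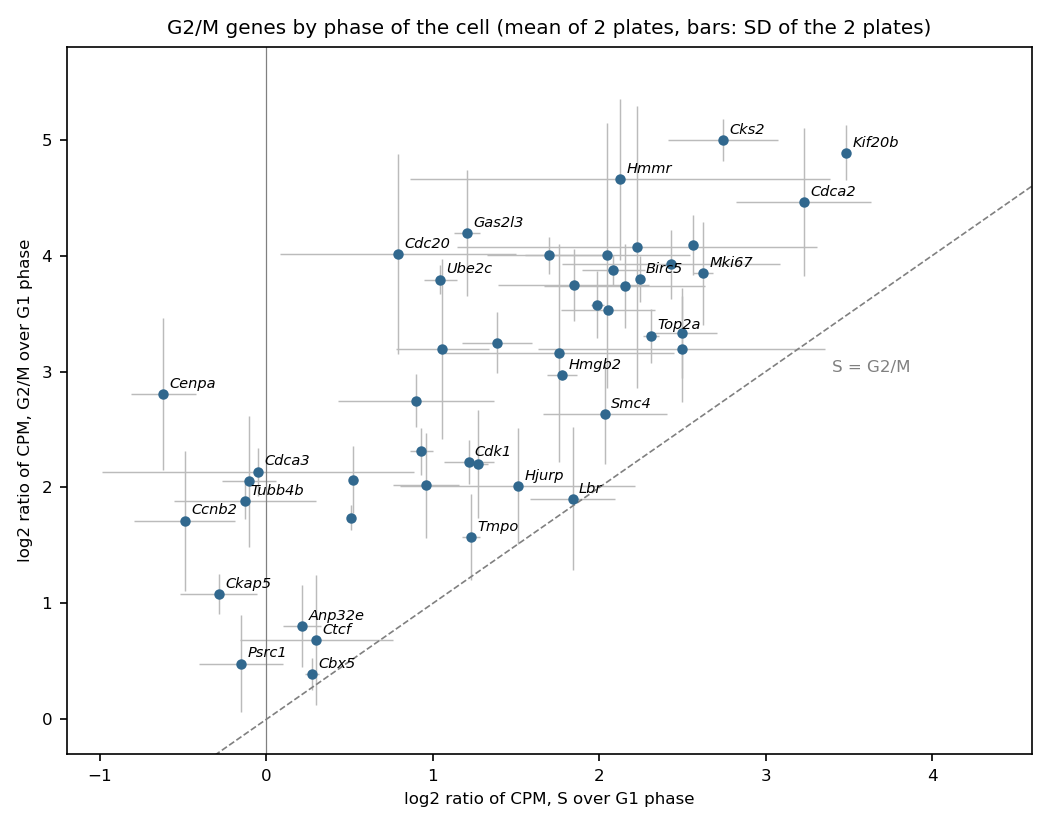
Log2 ratio of CPM in S over G1 cells (x axis) against G2/M over G1 cells (y axis) for 47 of the 48 genes with at least 100 counts, leaving out Nek2, which had 0 counts in G1 cells of plate 2. Points are ratios of the mean CPM of 2 plates, bars are the SD between the plates, and the dashed line marks equal S and G2/M levels. Cenpa and Ccnb2 lie left of 0, and Cbx5, Lbr and Tmpo lie close to the line.

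Among the kinases and their activators, the serine/threonine kinase gene Nek2, which acts in centrosome separation, was nearly absent outside G2/M cells. It had 1 and 0 counts in G1 cells of plates 1 and 2, 5 and 6 in S cells, and 47 and 45 in G2/M cells, so no ratio to G1 is given. With UMIs drawn down to 5000 per cell, a depth that 45 of the 304 cells did not reach, Nek2 was detected in 1 of 111 G1 cells (0.90%, exact 95% interval 0.02 to 4.92%) and in 17 of 79 G2/M cells (21.5%, 13.1 to 32.2%). Intervals cover counting error only. Without thinning these shares were 0.76% and 32.6%. Cks2, a small CDK-binding protein, had 4.56 and 3.30 CPM in G1, 26.4 and 26.3 in S and 156 and 94.3 in G2/M cells. Its log2 ratio of G2/M to G1 was 4.99 ± 0.18 (SD, n = 2 plates). Without thinning, 4 of 132 G1 cells had at least 1 UMI of Cks2. The ratio thus rests on few G1 counts, and the SD does not cover counting error. Of the non-zero Cks2 values, 69.7% were not whole numbers (to within 0.000001). Cdk1 itself differed less, with 52.1 and 57.2 CPM in G1 and 267 and 242 in G2/M cells (2.22 ± 0.19).

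Ccnb2, the cyclin B2 gene, was lower in S than in G1 cells on both plates. It stood at 58.6 and 103 CPM in G1, 50.0 and 65.2 in S, and 269 and 261 in G2/M cells. Aurka, the spindle pole kinase, had 5.21 and 1.91 CPM in G1 and 74.6 and 54.9 in G2/M cells. Bub1, a spindle checkpoint kinase, had 9.12 and 11.4 CPM in G1 and 126 and 119 in G2/M cells. The S level of Bub1, 36.9 and 44.6 CPM, lay between its G1 and G2/M levels on both plates.

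Cdc20 and Ube2c act with the anaphase-promoting complex. Both were among the 5 genes with the lowest S to G2/M ratio of those with at least 100 counts. G2e3 and Cdca3, listed with them as ubiquitin ligases and their partners, were not. Cdc20, the activator of the complex, had 10.4 and 26.7 CPM in G1, 28.2 and 36.0 in S and 285 and 314 in G2/M cells. Its log2 ratio of S to G2/M was -3.22 ± 0.15. Ube2c, the ubiquitin-conjugating enzyme that works with the complex, had 68.6 and 98.7 CPM in G1, 150 and 196 in S and 1023 and 1298 in G2/M cells. Its S to G2/M log2 ratio was -2.75 ± 0.03. Cdc20 was detected in 5.41% of thinned G1 cells, 18.8% of S cells and 81.0% of G2/M cells.

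The chromosomal passenger genes had higher values in S than in G1 cells. Birc5 (survivin) had 14.3 and 16.2 CPM in G1, 67.3 and 77.2 in S and 221 and 205 in G2/M cells. Aurkb, the kinase of this complex, had 5.21 and 5.72, 32.6 and 29.2, and 63.0 and 47.4 CPM. Kinetochore and centromere genes were spread widely. Cenpa, the centromeric histone H3 variant, had the lowest S to G2/M ratio of the genes with at least 100 counts, with 44.3 and 62.9 CPM in G1, 32.1 and 37.7 in S and 429 and 321 in G2/M cells (log2 ratio -3.43 ± 0.46). Cenpf had 23.5 and 21.0 CPM in G1, 63.0 and 81.5 in S and 348 and 364 in G2/M cells. Hjurp, the chaperone that loads CENP-A, had one of the highest S to G2/M ratios, -0.50 ± 0.20. Ndc80, of the outer kinetochore, had a log2 ratio of G2/M to G1 of 4.09 ± 0.26.

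Spindle genes ranged from a log2 ratio of G2/M to G1 of 0.48 to 4.89. The kinesin Kif20b stood at 3.91 and 3.81 CPM in G1, 43.4 and 42.9 in S and 103 and 126 in G2/M cells (G2/M to G1 4.89 ± 0.24). Hmmr, a spindle assembly factor, reached 4.66 ± 0.69 and Gas2l3, a cytoskeletal linker, 4.19 ± 0.55. Without thinning, Kif20b had at least 1 UMI in 3 of 132 G1 cells, Hmmr in 5 and Gas2l3 in 7. These ratios thus also rest on few G1 counts. Gas2l3 stayed low in S cells (13.0 and 13.7 CPM, against 79.6 and 133 in G2/M cells). Psrc1 had 105 and 114 CPM in G1 and 177 and 129 in G2/M cells (0.48 ± 0.42), and Ckap5, a microtubule polymerase, had 1.08 ± 0.17. Between them, Kif11, the motor of spindle bipolarity, had 3.93 ± 0.30, Nusap1 3.75 ± 0.31, Tpx2 2.75 ± 0.23 and the tubulin gene Tubb4b 1.88 ± 0.15.

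Genes of chromosome structure included those with the smallest differences between phases. Hmgb2, a DNA-bending chromatin protein, had 149 and 193 CPM in G1, 484 and 687 in S and 1138 and 1540 in G2/M cells. Top2a, which untangles DNA, had 82.1 and 100.1 CPM in G1, 397 and 508 in S and 917 and 889 in G2/M cells. Mki67, which coats mitotic chromosomes, had a log2 ratio of G2/M to G1 of 3.85 ± 0.45, Cdca2, a PP1-targeting protein, 4.46 ± 0.64, and the condensin subunit Smc4 2.63 ± 0.43. Cbx5, which encodes heterochromatin protein HP1 alpha, differed least, with 414 and 568 CPM in G1, 513 and 676 in S and 587 and 703 in G2/M cells (0.39 ± 0.14). Ctcf (0.68 ± 0.56), Anp32e (0.80 ± 0.35) and the lamina-associated gene Tmpo (1.57 ± 0.37) followed. Lbr, the lamin B receptor, had 56.5 and 90.9 CPM in S and 91.2 and 62.5 CPM in G2/M cells, and the order of the phases differed between the plates.

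Cells of each plate were also ordered by the deposited G2M score and cut into 5 bins of equal number. The highest bin was the top bin for 51 genes on plate 1 and 49 on plate 2, and for 48 on both. The exceptions were Cks1b, Lbr, Cbx5 and Ctcf, named after their values were seen. Ube2c had 247 and 397 CPM in the fourth bin and 1233 and 1567 in the fifth. Hmgb2 was closer to its top level in the fourth bin, with 830 and 1178 CPM there and 1163 and 1601 in the fifth. Cbx5 on plate 2 stayed between 569 and 688 CPM in all 5 bins. Over cells, Spearman's rho with the score had a median over genes of 0.49 on plate 1 and 0.55 on plate 2, and 0.47 and 0.53 with a score made without the gene itself. Hmgb2 had the highest rho (0.77 and 0.87). Median UMIs per cell were 5867 and 13811 in the fourth bin and 12085 and 13743 in the fifth (plates 1 and 2). The part of depth in these values was not tested. Each gene also enters the score, so these are descriptions.

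**Figure D3:**
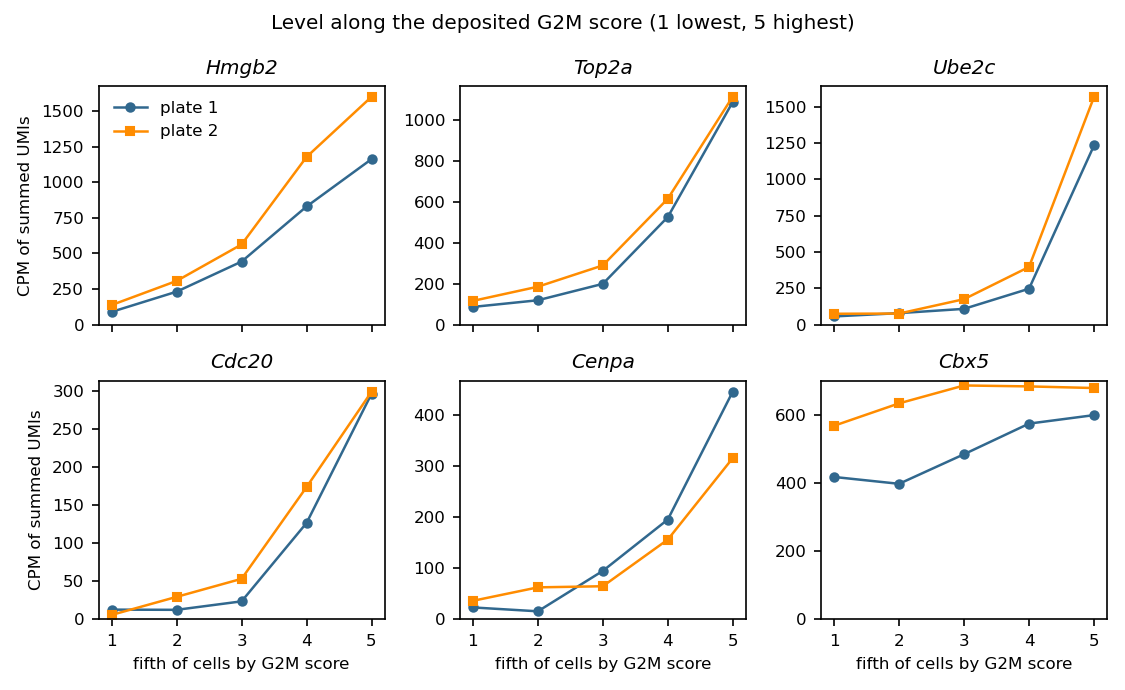
CPM of summed UMIs in 5 bins of cells by G2M score (x axis, 1 lowest and 5 highest) for 6 genes, on plate 1 (blue circles) and plate 2 (orange squares). Ube2c, Cdc20 and Cenpa are far higher in the last bin than in the fourth, and Hmgb2 is already high in the fourth. Cbx5 has 418 CPM in the first and 600 in the fifth bin of plate 1, and stays between 569 and 688 CPM on plate 2.

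G2/M cells were also split at the plate's median S score. Of the 52 genes 12 were higher in the cells with lower S score on both plates, 14 were higher in those with higher S score on both, and 26 went in opposite directions on the plates, so the direction did not agree more often than it differed. The genes given here were chosen from those that agreed, after their values were seen. Ccnb2 had 347 and 317 CPM in the cells with lower S score against 199 and 221 in those with higher S score. Cdc20 had 340 and 374 against 237 and 270, and Cenpa 479 and 388 against 386 and 272. In the other direction, Top2a had 803 and 617 CPM with lower S score against 1018 and 1090, and Cdca2 78.0 and 111 against 173 and 210. Cdk1, Smc4 and Bub1 were also higher with higher S score on both plates. Median UMIs per cell were 7640 and 12747 with lower and 11413 and 14265 with higher S score, and their part in these values was not tested.

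A set of 63 other mitotic genes, which did not enter the phase calls, was also compared between phases. The fit covered 12 sums (plate, GFP category and phase), with edgeR's quasi-likelihood test and Benjamini-Hochberg adjustment. Genes with an adjusted p under 0.1 are called. The set was chosen with earlier results of these data known, and phase was called partly from mitotic genes in the same cells. Higher values in G2/M cells were thus likely beforehand, and the calls are no independent test of the phases. Of the 53 that were tested, 50 were called higher in G2/M than in G1 cells and 0 lower (0 lower at an unadjusted p under 0.05 too), and 10.9% of the 6163 genes tested were called higher and 10.6% lower. Their median log2 fold change was 2.56, against -0.02 over all genes. Ccnb1, the cyclin B1 gene, was higher by a log2 fold change of 3.38 (SE 0.16, edgeR adjusted p = 4.0e-26), Plk1, a master mitotic kinase, by 4.29 (SE 0.29), Prc1, which bundles midzone microtubules, by 2.45 (SE 0.16), Aspm by 3.49 (SE 0.25) and Ccna2, cyclin A2, by 3.71 (SE 0.32). Mybl2, Pttg1 and Zwint were not called. Fewer of the other mitotic genes were called in G2/M cells after thinning, as given in the last section. Between S and G1 cells 40 were called higher and 2 lower, against 9.51% and 8.18% of all genes. Pimreg (3.03, SE 0.35) and Jpt1 (1.39, SE 0.17) are kept apart because newer versions of the scoring list hold them.

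The study sorted the cells to ask how NSPCs with few and many lipid droplets differ, and the G2/M genes were read out of a fit over all genes on the 4 sums of plate and category, with the plate as a block. Of the 52 genes 38 were higher in high PLIN2-GFP NSPCs, with a median log2 fold change of 0.19 (-0.00 over all 8348 genes tested), and 29 were higher on both plates. Ube2c, Top2a, Cdca2, Kif20b and Kif23 were called higher, 5 of 52, where 0.886% of all genes were called higher. No gene was called lower (0 of 52, against 1.26% of all genes), and 1, Ccnb2, was lower at an unadjusted edgeR p under 0.05. The plates were unequal: the median log2 difference was 0.34 on plate 1 and 0.08 on plate 2. The share of UMIs that came from G2/M cells was 25.2% in low and 39.0% in high cells of plate 1, and 34.0% and 30.5% on plate 2, where it was thus lower in high cells. The 52 genes made up 0.559% of UMIs in low and 0.749% in high cells of plate 1, and 0.729% and 0.772% on plate 2. The part of the G2/M share in the differences over all cells was not tested in that fit.

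CPM in comparisons between the GFP categories are normalized CPM, counts per 1000000 counts of the tested genes after TMM scaling. Ube2c had 285 and 430 CPM in low cells and 507 and 641 CPM in high cells (plates 1 and 2), so high exceeded low on each plate. Its log2 fold change was 0.69 (SE 0.11, edgeR adjusted p = 1.2e-07). Of its non-zero values, 44.7% were not whole, and dropping the parts of UMIs gave 0.73. Top2a had 318 and 443 CPM in low and 542 and 583 in high cells, where both high values lay above both low values (0.57, SE 0.11, edgeR adjusted p = 3.3e-05). Cdca2 had 32.9 and 75.3 CPM in low and 75.8 and 100.3 in high cells (0.73, SE 0.22, edgeR adjusted p = 0.0598). The motors Kif20b (28.9 and 46.1 against 61.3 and 72.0 CPM, 0.83, SE 0.26) and Kif23 of the central spindle (53.9 and 53.4 against 80.7 and 93.9 CPM, 0.70, SE 0.22) had adjusted p of 0.0677 and 0.0788 in edgeR. Without the plate block 0 of the 5 were called, and with each cell thinned to 5000 UMIs 0 were called. Leaving out the low or the high sum of plate 1, or the high sum of plate 2, also left 0 called.

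Of the genes that were not called, the largest differences were those of Cdc25c (log2 fold change 1.29, SE 0.53), the phosphatase that activates CDK1, with 4 and 5 counts in low and 13 and 12 in high cells, Hmmr (0.69, SE 0.26), Gas2l3 (0.53, SE 0.28), G2e3 (0.48, SE 0.21) and Birc5 (0.46, SE 0.18). Tacc3, Ckap5 and Anp32e had lower values in high cells on both plates. Ccnb2 had 125 and 178 CPM in low and 131 and 107 in high cells (-0.33, SE 0.16), so its plates went in opposite directions. By role, log2 fold changes were positive for 7 of the 11 genes of chromosome structure and the nuclear envelope (2 called) and 10 of 15 spindle genes (1 called). They were positive for all 4 genes of ubiquitin ligases and their partners (1 called, the conjugating enzyme gene Ube2c). All 3 cytokinesis genes were positive too (1 called), although the cytokinesis gene Anln was lower in high cells of plate 2 (-0.18). Log2 fold changes were also positive for 7 of 9 genes of the CDK1 module, 5 of 7 centromere and kinetochore genes and 2 of 3 chromosomal passenger genes. In each of these roles 0 were called at an edgeR adjusted p under 0.1 and 1 was higher at an unadjusted p under 0.05. Over all genes 0.886% were called higher.

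**Figure D4:**
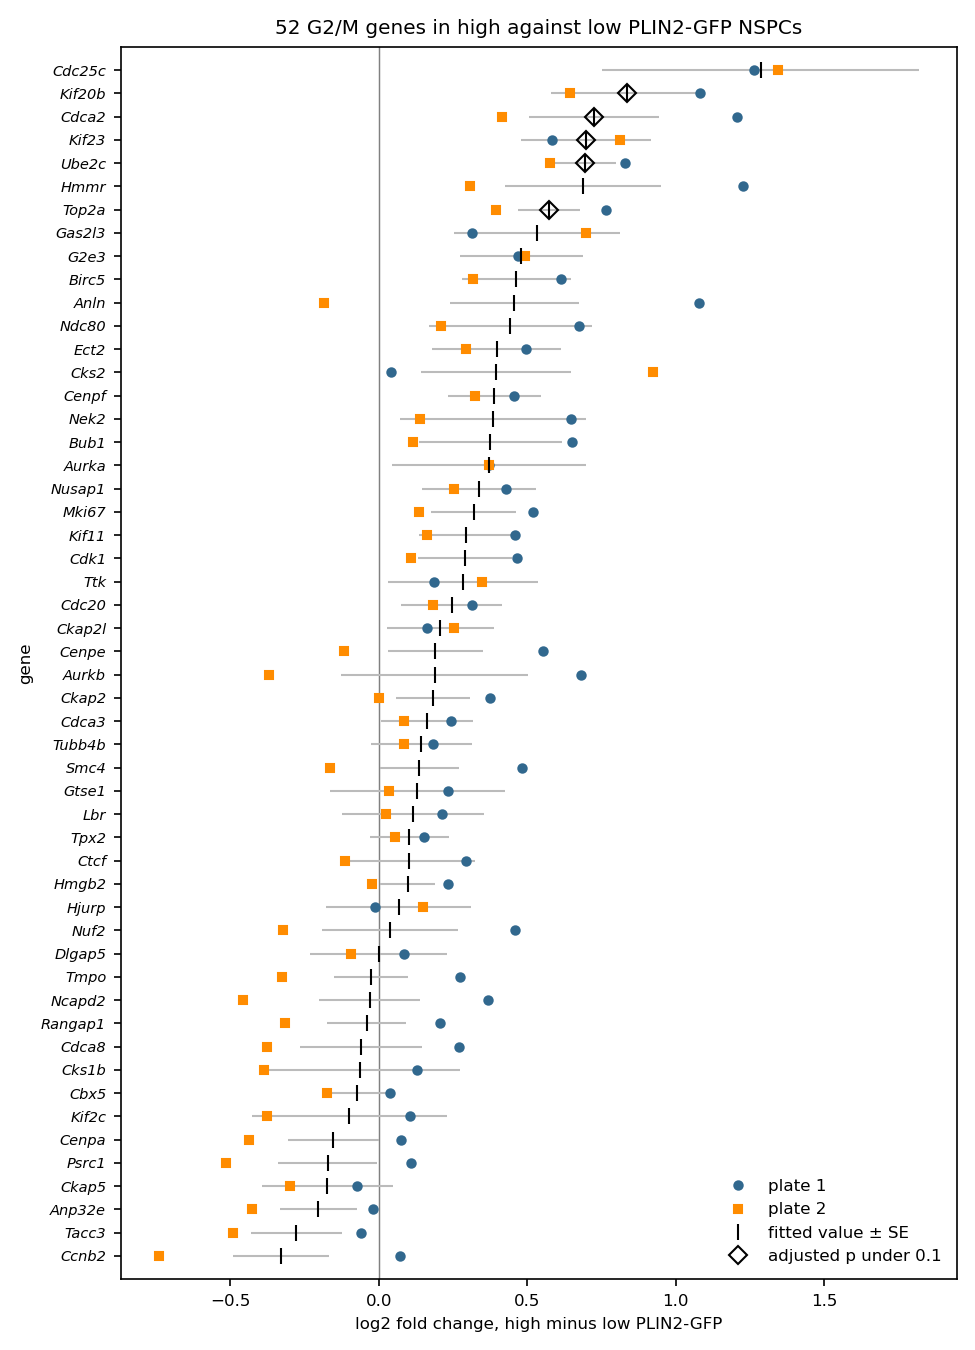
Log2 fold change between high and low PLIN2-GFP NSPCs for the 52 genes on plate 1 (blue circles) and plate 2 (orange squares), with the fitted value (tick) ± SE (grey line) and a diamond for genes with an edgeR adjusted p under 0.1. Most plate 1 values lie right of 0, 48 of 52, against 30 of 52 on plate 2.

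Since the share of G2/M cells differed between categories, the same comparison was made within phase, where 51 of the genes were tested and Cdc25c was not. Phase was called from these same genes, so low and high cells of a phase were partly matched on them beforehand. A difference common to the genes can therefore be partly removed, which limits all p-values and calls within phase and between phase effects. In G2/M cells high PLIN2-GFP NSPCs had higher values for 34 genes and lower values for 17, with a median log2 fold change of 0.20. Top2a was called (1 of 51, with 0.178% of 6163 genes called higher). It had 783 and 668 CPM in low and 1052 and 1263 in high G2/M cells, with both high values above both low values (0.68, SE 0.15, edgeR adjusted p = 0.0129). Without the plate block and in DESeq2 it was not called. Ube2c in G2/M cells had 976 and 1033 CPM in low and 1124 and 1780 in high cells (0.51, SE 0.14, edgeR adjusted p = 0.134).

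Ccnb2 had 333 and 336 CPM in low and 258 and 206 in high G2/M cells (-0.47, SE 0.22) and Cenpa 595 and 376 in low and 382 and 294 in high cells (-0.49, SE 0.20), both lower on each plate but not called (edgeR adjusted p = 0.608 and 0.458). Hmgb2 had 1282 and 1609 CPM in low and 1155 and 1653 in high G2/M cells, in opposite directions on the 2 plates. Median UMIs per G2/M cell on plate 1 were 7258 in low and 10966 in high cells. After thinning to 5000 UMIs per cell the median log2 fold change in G2/M cells was -0.08 in place of 0.20.

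In G1 cells 19 genes were higher and 32 lower (median -0.19), and in S cells 22 were higher and 29 lower (median -0.03). In both phases 0 were called in edgeR, where 0.0162% and 0.114% of all genes were called higher and lower in G1 and 0.341% and 0.276% in S cells, and 0 were called in DESeq2. At an unadjusted p under 0.05, 1 was higher and 2 were lower in G1, and 4 were higher and 1 lower in S cells. With the 3 phases given equal weight 21 genes were higher and 30 lower, and Ube2c was called (0.52, SE 0.14, edgeR adjusted p = 0.0284) where 1.61% of all genes were called higher and 1.7% lower. Top2a then had 0.07 (edgeR adjusted p = 0.89). This fit averages log values. When normalized CPM were averaged over the phases on the linear scale, with no test, Top2a had log2 differences of 0.38 and 0.43 on plates 1 and 2, and 29 and 32 of the 52 genes were higher in high cells. The difference of the high to low effect between G2/M and G1 cells was called for 0 of the 51 genes (4 higher and 3 lower at an unadjusted p under 0.05), where 0% of all genes were called higher and 0.0162% lower. For Top2a this difference was 1.22 (SE 0.32, edgeR adjusted p = 0.481).

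**Figure D5:**
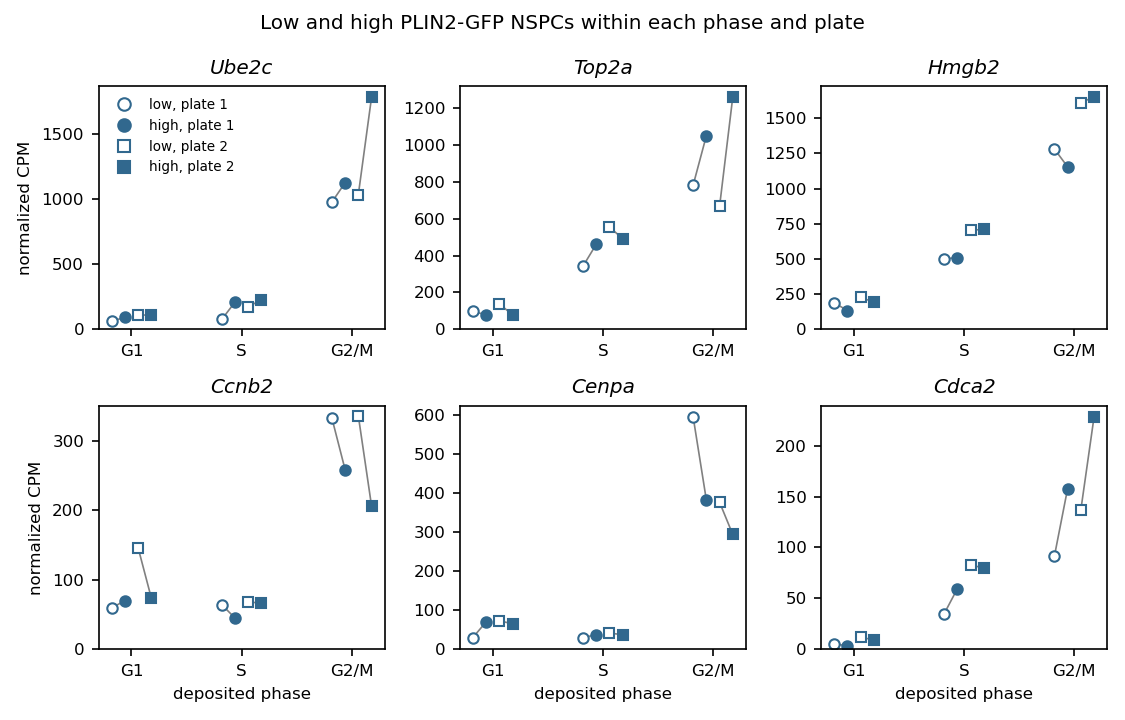
Normalized CPM of 6 genes in low (open) and high (filled) PLIN2-GFP NSPCs by deposited phase, on plate 1 (circles) and plate 2 (squares), with lines joining the categories of a plate. In G2/M cells Top2a, Ube2c and Cdca2 are higher and Ccnb2 and Cenpa lower in high cells on both plates, of which only Top2a was called.

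Of the other mitotic genes, 62 of 65 were tested between high and low cells in the fit of 4 sums, 47 were higher (median 0.21) and 4 were called higher, Fam83d (0.88, SE 0.21), Prc1 (0.47, SE 0.13), Kif18a (0.78, SE 0.24) and Cenpl (1.10, SE 0.35), again where 0.886% of all genes were called higher. Plk1 had 0.49 (SE 0.19, edgeR adjusted p = 0.216).

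Promoters with TTTGAA near the start belonged to genes with a median log2 ratio of G2/M to G1 cells of 3.28 (26 genes), against 2.73 for the 20 matched genes without it. The sets overlapped, and their difference was not tested. Genes with TTTGAA ranged from 1.08 to 4.89, with Ckap5 (1.08) and Tmpo (1.57) among the low ones. Those without included Cbx5, Anp32e, Ctcf and Psrc1, with low ratios. They also included Cks2 (4.99), Kif2c (4.68), Gas2l3 (4.19) and Nek2, which was nearly absent from G1 cells. Psrc1, Gas2l3 and Bub1 had the variant TTCGAA near the start.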

How the data were processed

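The authors assigned reads with Salmon and alevin (tools named in the submitters' processing notes) to GRCm38 and deposited estimated counts of UMIs per gene and cell, without normalization. Versions and the annotation release are not given in the sources used here. Their filters were stated as under 20% mitochondrial counts and doublet detection, though 11 of the 304 cells had 20% or more. No further cells were removed and no doublet caller was run here. A deposited per-cell table gives plate, GFP category, the percent of mitochondrial counts, the count of genes and the S and G2M scores with the phase. Count columns carry no cell names. They were joined to cells by equal UMI total (within 0.01) and gene number, and 0 columns were left unjoined.

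Counts were summed by plate and category (4 sums, 1 residual degree of freedom) and also by phase (12 sums, 5 residual degrees of freedom), rounded, filtered with filterByExpr and fitted in edgeR 4.0.16 with TMM factors and a plate block (R 4.3.3). Benjamini-Hochberg adjustment ran over all 8348 or 6163 genes, and an adjusted p under 0.1 was called. The study also used 0.1, but with Bonferroni correction of a Wilcoxon test on single cells, so its calls follow another criterion. SEs were derived from the fold change and its F statistic. They rest largely on spread shared over genes. In the 4 sums Anln, with log2 differences of 1.08 and -0.18 on plates 1 and 2, had an SE of 0.22. Kif23, with 0.58 and 0.81, also had 0.22. Alternatives used DESeq2 1.42.0, limma 3.58.1 and Seurat 5.3.0. The fits were also run on simulated sums with the same spread for all genes and no plate effect. That check does not cover genes whose plates disagree. Low and high sums of the same plate deviated together (r = 0.30 over 8348 genes), and the plate is named in the per-cell table. CPM by phase, score bin and marker are counts scaled to 1000000 per sum, and CPM by GFP category are scaled to the counts of the tested genes times the TMM factor. Levels are UMI counts at transcript ends and are not scaled by length.

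The genes, the other mitotic genes and the roles were chosen with earlier results of these data known. Named genes are all that were called, the 6 highest and 6 lowest by G2/M to G1 ratio and the 5 highest and 5 lowest by S to G2/M ratio among genes with at least 100 counts, the 5 largest differences not called, and role-defining genes. Promoters of Cdc25c, Aurkb, Tpx2, Dlgap5, Smc4 and Cdca2 were not analysed here.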

Additional observations from a re-analysis of the deposited data

How the results depend on the processing

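Of the alternatives for high against low PLIN2-GFP NSPCs, the count of G2/M genes called higher, 5, became 0 without the plate (replicate) block, 2 in DESeq2, 0 after thinning to 5000 UMIs, 1 with equal weight for the 3 phases and 2 at an adjusted p under 0.05, and ranged from 0 to 2 with 1 of the 4 sums left out. A fit with a sum left out has no block and assumes that the lone sum varies like the others. The median log2 fold change, 0.19, became -0.057 with equal weight for the phases and ranged from 0.075 to 0.40 with a sum left out. The count was 4 or 5 with limma voom, RLE factors, library sizes alone, no low-count filter, cells under 20% mitochondrial counts or parts of UMIs dropped, the last chosen after seeing the data. No called gene changed sign under any alternative. Within S cells, 1 gene in place of 0 was called with library sizes alone, without the filter and with phases scored again. Within G2/M cells, the count of 1 became 0 without the block, 0 in DESeq2, 2 with library sizes alone and 2 without the filter, and thinning moved the median to -0.080. Of the other mitotic genes, 24 in place of 50 were called in G2/M after thinning, and 40 and 51 with 1 plate left out. For the phase profile, 1 plate alone gave median log2 ratios of S to G1 of 1.43 to 1.85, of G2/M to G1 of 3.00 to 3.45, and 4 to 7 genes lower in S than in G1 cells. The causes of these changes were not tested.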
